A study of Mus musculus with 2 samples.

Results

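Amino-acid transporters of the solute carrier (Slc) families 1, 3, 6, 7, 36, 38 and 43 were examined in single-cell RNA profiles of subcutaneous mouse tumours. The members were the mouse genes of these families whose symbols matched a fixed pattern and that had at least 20 UMIs (unique molecular identifiers, which mark single captured RNA molecules) over both libraries. The pattern matched 47 of 32285 genes, and 33 reached the minimum. Slc7a4 (21 UMIs) and Slc1a1 (32 UMIs) lay just above it, and Slc36a3 (19 UMIs) just below. One library came from mice on a control diet and one from mice on a diet without serine and glycine, here the serine/glycine-free diet. The sources used here give no tumour line, strain, age or number of mice per library. With 1 library per diet there was no replicate check and no test, so every interval below covers counting error only.

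Cells cannot pass most amino acids through their membranes without carriers. Serine, alanine and glutamine enter through sodium-coupled carriers such as those encoded by Slc1a4, Slc1a5 and Slc38a2, glycine through Slc6a9, and large neutral amino acids through exchangers of the Slc7 family that pair with the heavy chain Slc3a2. Slc7a11 pairs with the same heavy chain to take up cystine in exchange for glutamate, and its transcription is known to be induced by ATF4, a factor of the amino-acid starvation response, and by NRF2, a factor of the oxidative stress response. Slc1a2 takes up glutamate and is best known from astrocytes.

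The 250 bases before 1 annotated transcript start, the start that the RefSeq table used here gives, are shown for the cystine carrier Slc7a11 and the serine and glutamine carrier Slc38a2, whose diet ratios are described below. The Slc38a2 window borders the gene's annotated span, while the Slc7a11 window lies inside the span given below, so other Slc7a11 starts have other upstream sequence. Sequences are from RefSeq on GRCm38.p6, given 5′ to 3′ on the strand of the gene. Capitals mark matches on either strand to TGATGNAAN, the letters of the element bound by ATF4 with C/EBP factors, or to TGACNNNGC, the core of the antioxidant response element bound by NRF2. The motifs do not overlap each other in these windows.
Slc7a11, chr3:50443614-50443863, minus strand: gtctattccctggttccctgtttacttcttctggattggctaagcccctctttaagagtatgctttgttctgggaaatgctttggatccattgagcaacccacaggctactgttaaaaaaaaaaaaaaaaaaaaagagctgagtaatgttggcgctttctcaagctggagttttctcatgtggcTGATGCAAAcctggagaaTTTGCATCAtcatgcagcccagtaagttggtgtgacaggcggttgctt
Slc38a2, chr15:96699729-96699978, minus strand: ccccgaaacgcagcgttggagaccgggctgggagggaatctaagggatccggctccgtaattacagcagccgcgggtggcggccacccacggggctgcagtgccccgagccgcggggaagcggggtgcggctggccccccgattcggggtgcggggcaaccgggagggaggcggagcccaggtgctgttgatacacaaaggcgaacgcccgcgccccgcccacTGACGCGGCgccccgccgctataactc
Slc7a11 held the ATF4 element at 66 to 58 bases before this transcript start and again, on the other strand, at 48 to 40 bases. Slc38a2 held the antioxidant core at 27 to 19 bases before the start. The ATF4 element was found in 3.44% of all 32851 windows of this length and the antioxidant core in 10.2%. Of the 33 members, 25 had windows in the table (37 windows), and the ATF4 element was in those of Slc7a11 and Slc7a7. The antioxidant core was in windows of Slc38a2, Slc43a1, Slc6a9, Slc7a1 and Slc7a6.

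After filtering, 13588 control cells and 19106 cells of the serine/glycine-free library remained, with medians of 11310.5 and 7305 UMIs per cell. Clustering without the transporter genes gave classes named from marker panels, and levels are CPM, that is, UMIs summed over a class in 1 library and scaled to a common total. Presumed tumour cells were the clusters that no marker panel named and whose leukocyte genes had a mean log2 fold of at most -1. They made up 10797 and 14038 cells. Hmga2 and Rhox5 were not used to name these clusters but were read in each of them. RNA of tumour cells was present in other classes: by Hmga2 and Rhox5 it amounted to 4.87% and 9.06% of the tumour level in monocyte/macrophage-like cells, 6.53% and 7.42% in T-like cells and 44.1% and 88.0% in neutrophil-like cells (control and serine/glycine-free in each case). A transporter at or below 2 times the level this RNA would bring was read as background in that class. The libraries shared 87 cell barcodes.

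The classes carried different sets of transporters. Of the 32 members with at least 10 UMIs in some class in both libraries, 22 had the same highest class in both. That class was presumed tumour for 8, monocyte/macrophage-like for 8, fibroblast-like for 4, T-like for 1 and neutrophil-like for 1. The ranking was made only among classes with at least 10 UMIs of the gene: 7 of the 8 presumed tumour members, all but Slc1a4, had a higher CPM on fewer UMIs in another class in at least 1 library, and so had Slc38a7 among those of monocyte/macrophage-like cells. For 5 members the highest class also stood clear of the next by its counting interval in both libraries, namely Slc38a6, Slc43a2 and Slc7a8 in monocyte/macrophage-like cells, Slc7a11 in neutrophil-like cells and, named after its values were seen, Slc1a3 in fibroblast-like cells.

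**Figure D1:**
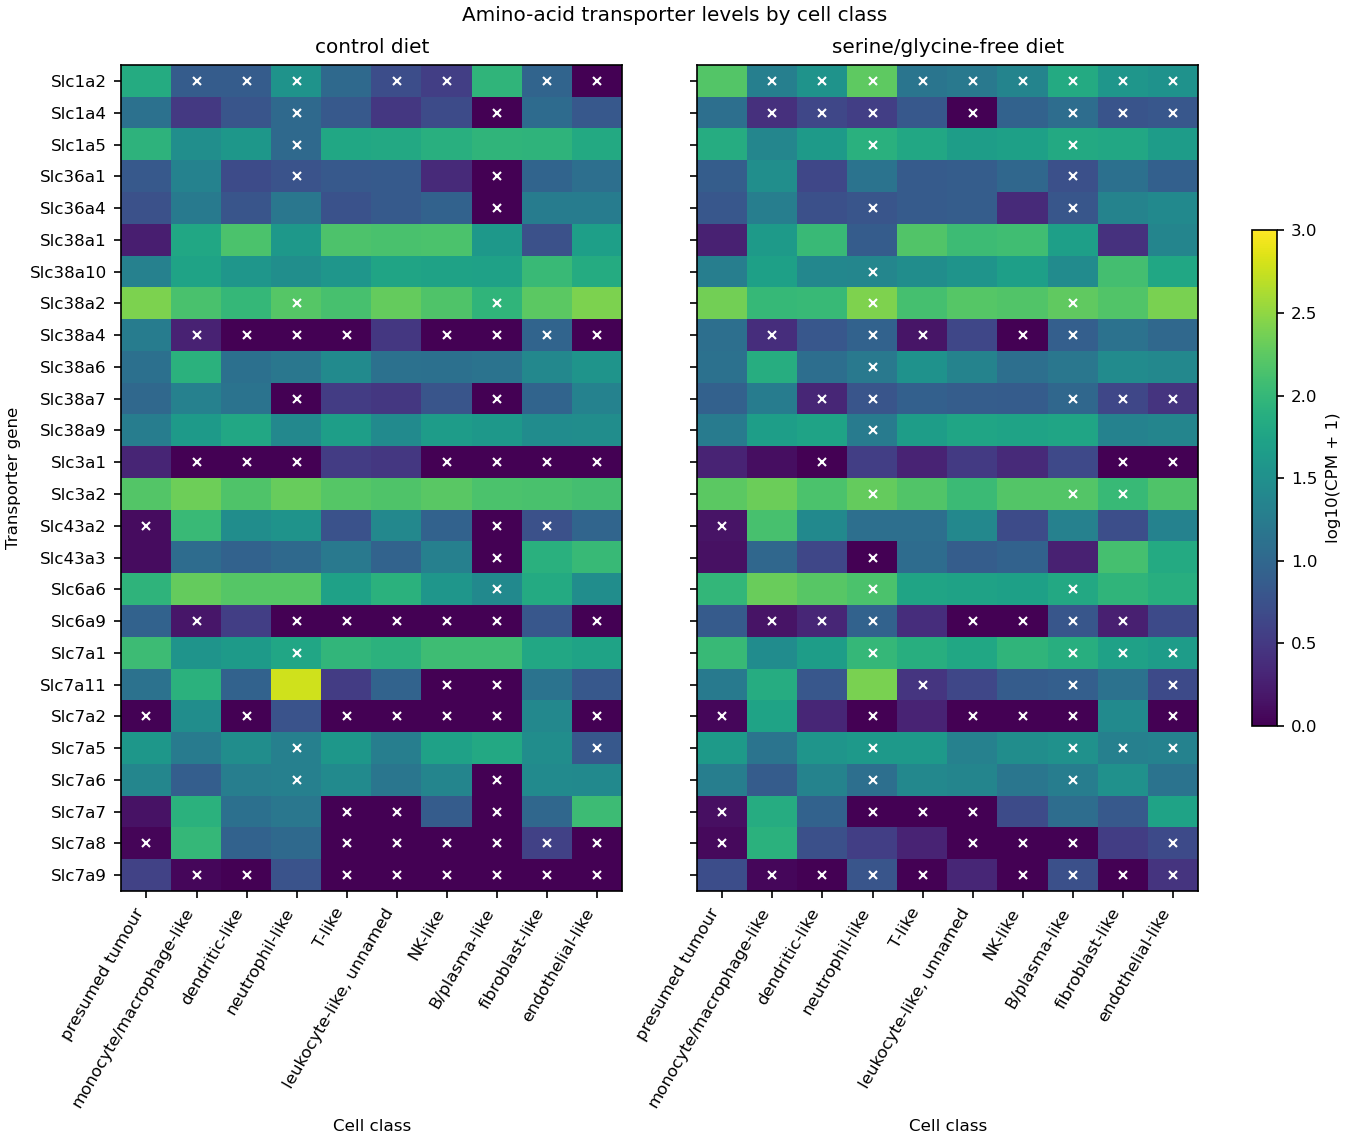
Levels of the 26 named transporters (rows) in 10 cell classes (columns), with colour for log10(CPM + 1) in the control library (left) and the serine/glycine-free library (right). White crosses mark values at the level that RNA of other cells would bring. Slc38a2 and Slc3a2 were high in nearly every class, Slc38a1 was low in presumed tumour and fibroblast-like cells, and Slc7a11 was highest in neutrophil-like cells.

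Among the carriers of serine and glycine, Slc38a2 (chromosome 15, 96687392 to 96699728 on GRCm38.p6) was read in presumed tumour cells at 255 CPM in the control library and 232 CPM in the serine/glycine-free library. Its log2 ratio of serine/glycine-free over control was -0.14 (95% counting interval -0.16 to -0.12). Slc1a5 (chromosome 7, 16781334 to 16798274) stood at 86.4 and 71.1 CPM, a log2 ratio of -0.28 (-0.32 to -0.24). Both were thus lower in the library of the serine/glycine-free diet by less than the 0.5 used to call a difference. Slc1a4 (chromosome 11, 20302180 to 20332713) was at 12.1 and 11.5 CPM, and its interval (-0.17 to 0.03) included 0. The glycine carrier Slc6a9 was at 7.80 and 6.33 CPM (-0.30). None of these carriers was called higher in presumed tumour cells on the diet without serine and glycine.

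The glutamate carrier Slc1a2 (chromosome 2, 102658239 to 102790784) was the member with the largest ratio in presumed tumour cells among those above 1 CPM. It stood at 70.0 CPM in the control library and 155 CPM in the serine/glycine-free library, a log2 ratio of 1.15 (1.11 to 1.18). A Slc1a2 UMI was found in 30.6% of presumed tumour cells of the control library and in 54.7% of those of the serine/glycine-free library, and after thinning each cell to 500 UMIs in 3.29% and 7.47%. In T-like cells the unthinned shares were 1.65% and 2.68%. Median depth was 12788 and 8838 UMIs per presumed tumour cell and 2674 and 2030.5 per T-like cell. Presumed tumour cells held 98.2% of the Slc1a2 UMIs of the classes. Over all genes they held 148824903 of 161608837 analysed UMIs in the control library. In the serine/glycine-free library they held 139153195 of 156639681.

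A member was called higher or lower when its log2 ratio passed 0.5 and its counting interval lay on the same side of 0. In presumed tumour cells 4 of 30 measured members were called higher, against 6.42% of all measured genes, and 3 were called lower, against 5.54%. Besides Slc1a2, those called higher were Slc7a9, the light chain of a cystine and basic amino-acid exchanger, at 2.92 and 4.17 CPM (0.51), and Slc43a2 and Slc7a2, which were under 1 CPM in both libraries and at the level that leukocyte RNA would bring. Slc7a9 lost its call under several settings, among them the value without the tumour cluster that 1 library nearly fills (0.49). The neutral amino-acid carrier Slc38a4 was called lower, at 17.1 and 11.5 CPM, a log2 ratio of -0.58 (-0.67 to -0.48). Slc7a14 and Slc1a7, named after their values were seen, were called lower on 48 and 87 UMIs in the control library. The median log2 ratio over the 30 members was 0.00, beside 0.03 over all measured genes.

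**Figure D2:**
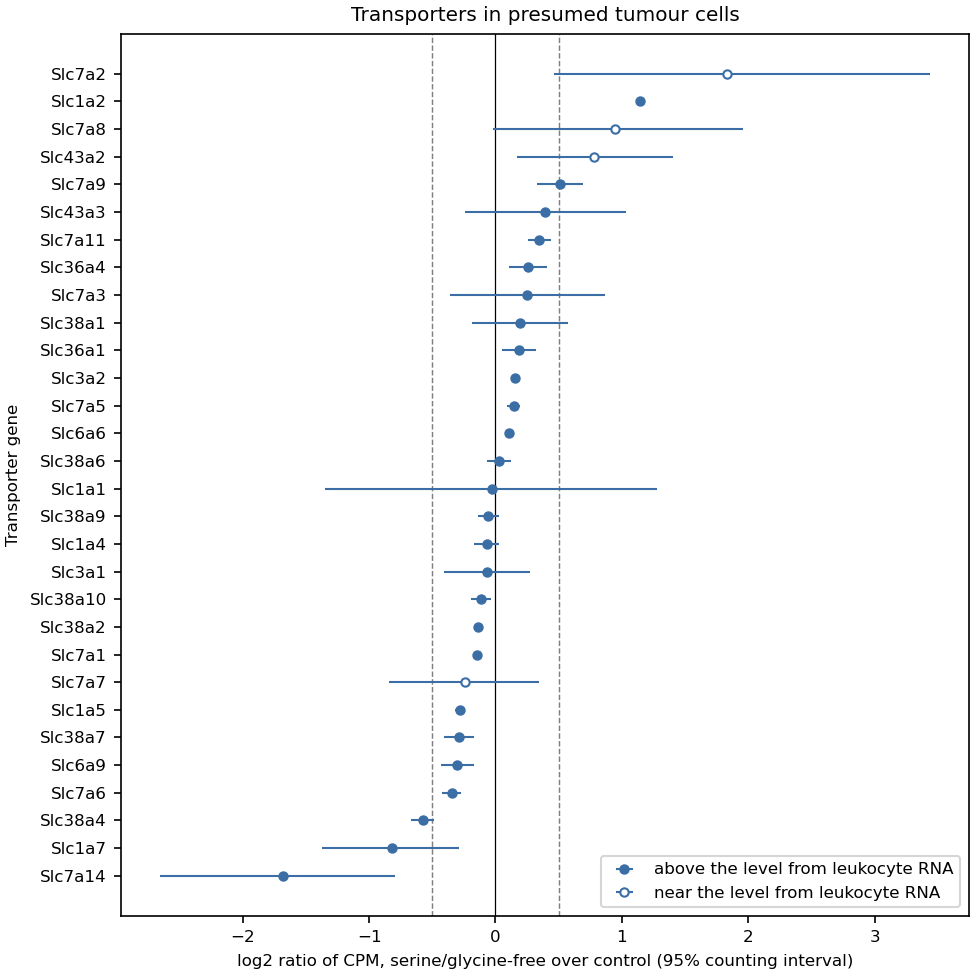
Log2 ratio of CPM, serine/glycine-free over control, of each measured transporter in presumed tumour cells (points) with its 95% counting interval (lines). Dashed lines mark the 0.5 used for a call, and open points are near the level of leukocyte RNA. Slc1a2 lies at 1.15 and Slc38a4 at -0.58, while most abundant carriers lie within 0.5 of 0.

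The heavy chain Slc3a2 and its partners Slc7a5, Slc7a6 and Slc7a11 were not called in presumed tumour cells. Slc3a2 was at 158 and 176 CPM (0.15) and its partner Slc7a5, a carrier of leucine and other large neutral amino acids, at 37.7 and 41.7 CPM (0.14). The partner Slc7a6 was at 23.1 and 18.2 CPM (-0.34). Slc7a11 (chromosome 3, 50364936 to 50499087) was at 12.3 and 15.7 CPM, a log2 ratio of 0.35 (0.26 to 0.44), above 0 but under the call. The arginine and lysine carrier Slc7a1 was at 114 and 103 CPM (-0.14) and the taurine carrier Slc6a6 at 87.7 and 94.6 CPM (0.11).

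The 11 clusters of presumed tumour cells come from the same 2 libraries and are not replicates, but they show whether a ratio was carried by 1 kind of cell. Slc1a2 was called higher in 11 of 11 clusters, with log2 ratios from 0.72 to 2.86. Of the 8563 genes measured in all 11, 4 were called higher in all of them (0.0467%). The lowest ratio was in the cluster led by Cryab, Ndrg1 and Bnip3 (78.1 and 129 CPM), and the highest in the cluster led by Acta1 and Lama2 (11.8 and 85.5 CPM), which held 355 and 21 cells. The highest level was in the cluster led by Ogn, Cp and C1s1, at 121 and 258 CPM. Slc38a4 was lower in 10 of the 10 clusters where it was measured with UMIs in both libraries, and called in 7. Of genes measured in as many clusters, 0.94% were called lower in at least as many. Slc7a11 was higher in 10 of the 10 clusters where it had UMIs in both libraries, and called in 6 (1.73% of such genes). In the cluster of 355 and 21 cells both genes were at 0 CPM in the serine/glycine-free library, so both were lower there without a ratio.

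Slc1a5 was lower in 10 of 11 clusters and called in 1 (9.27% of genes measured in all 11 were called lower in at least 1), the interferon-response cluster led by Ifit1 and Ifit3 (82.8 and 55.7 CPM). Its level varied more between clusters than between diets, from 36.2 to 117 CPM in the control library. Slc38a2 was lower in 10 of 11 and called in none. Slc1a4 was above control in 9 and below in 2, the opposite of its sign over all presumed tumour cells, but called in none. Its cluster ratios ran from -0.42 to 1.75, and weighting clusters equally gave 0.23. That mean gives full weight to the cluster of 355 and 21 cells, where the serine/glycine-free level was highest (31.1 CPM) on few UMIs. Slc7a9 was highest in the mitotic cluster led by Ube2c and Ccnb1, at 9.03 and 8.49 CPM.

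**Figure D3:**
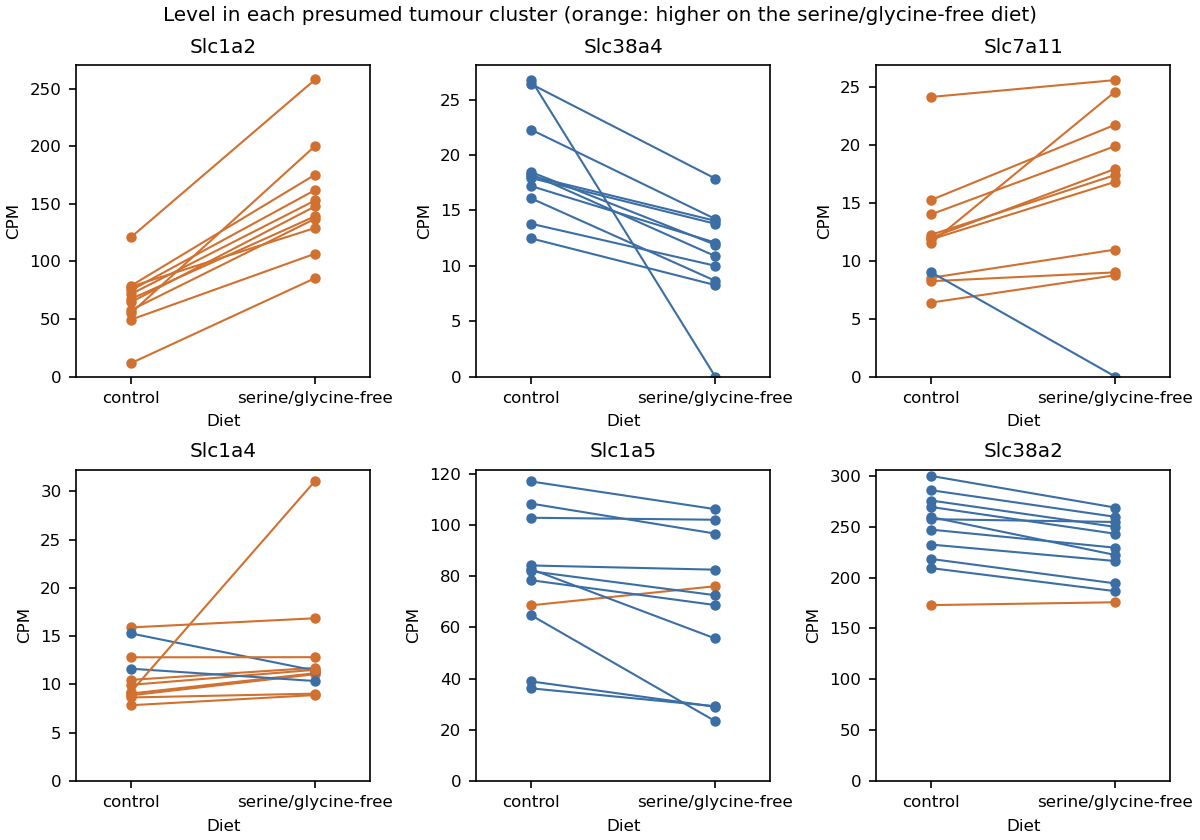
Level in CPM of 6 transporters in each of the 11 presumed tumour clusters, control library (left points) joined to serine/glycine-free library (right points), orange where the latter is higher. All 11 lines of Slc1a2 go up and all lines of Slc38a4 go down, and the cluster of 355 and 21 cells gives the lines that end at 0.

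In monocyte/macrophage-like cells, 3 of 22 measured members were called higher (5.79% of all measured genes) and 1 was called lower (3.61%). Slc7a2, a carrier of arginine and other basic amino acids, was at 28.9 and 53.9 CPM, a log2 ratio of 0.90 (0.66 to 1.15). Slc36a1, a proton-coupled carrier of small amino acids, was at 20.1 and 29.5 CPM (0.55). The third, Slc1a2, at 6.45 and 19.0 CPM, was at the level that tumour RNA would bring with all cells counted. Without cells that carried tumour genes Slc1a2 stood at 3.68 and 9.05 CPM, on 26 and 55 UMIs, and was still called higher. Tumour RNA was then at 1.94% and 2.45%, and its part in the remaining Slc1a2 ratio was not tested. The glutamine carrier Slc38a1 was called lower, at 59.9 and 42.3 CPM (-0.50), and without cells that carried tumour genes it was no longer called (-0.40), whereas Slc1a5 (-0.55), Slc38a2 (-0.56) and Slc7a5 (-0.58) then were. Slc36a1 was not called when doublets were kept (0.31).

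The monocyte-like and macrophage-like clusters of this class differed in their transporters. Slc7a11 was at 261 CPM in control and 191 CPM in serine/glycine-free cells of the monocyte-like cluster (led by F10, Thbs1 and Vcan), a log2 ratio of -0.45 (-0.67 to -0.24). In the macrophage-like cluster (led by C1qc and C1qa) it was at 18.9 and 37.2 CPM, a log2 ratio of 0.97 (0.63 to 1.33). Slc7a11 was thus higher in monocyte-like than in macrophage-like cells in both libraries, and the ratios of the clusters lay on opposite sides of 0. A Slc7a11 UMI was found in 68 of 1017 and 111 of 1394 macrophage-like cells, so most cells of the cluster had none, and whether a subset carried the ratio was not tested. Leaving out cells with tumour genes gave 1.07 in the macrophage-like and -0.48 in the monocyte-like cluster.

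Slc7a2 was at 18.7 and 50.9 CPM in the macrophage-like cluster, a log2 ratio of 1.44 (1.11 to 1.78), and at 57.5 and 64.9 CPM in the monocyte-like cluster (0.17, -0.23 to 0.58). In the monocyte-like cluster 1 member was called higher (8.69%), Slc1a2 at the level of tumour RNA, and 2 members were called lower (4.09% of all measured genes), Slc1a5 at 34.4 and 18.7 CPM (-0.88) and Slc38a2 at 241 and 157 CPM (-0.61). With at least 2000 UMIs per cell Slc1a5 lost its call (-0.74, -1.54 to 0.01), while Slc7a11 (-0.67) was called lower and Slc36a1 (0.85) higher. In the macrophage-like cluster 4 members were called higher (5.19%), Slc7a2, Slc7a11, Slc36a1 and, at the level of tumour RNA, Slc1a2, and 1 lower (3.9%), Slc38a1 (-0.56). Without cells that carried tumour genes Slc38a1 was at -0.47 there and not called. The depth of the clusters also differed, with medians of 3006 and 1882 UMIs per monocyte-like cell and 5035 and 3521.5 per macrophage-like cell. The monocyte markers that are not macrophage markers summed to 17212 and 18799 CPM in the macrophage-like cluster, higher in the serine/glycine-free library for 7 of 11 genes, and their part in the Slc7a11 and Slc7a2 ratios was not tested.

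**Figure D4:**
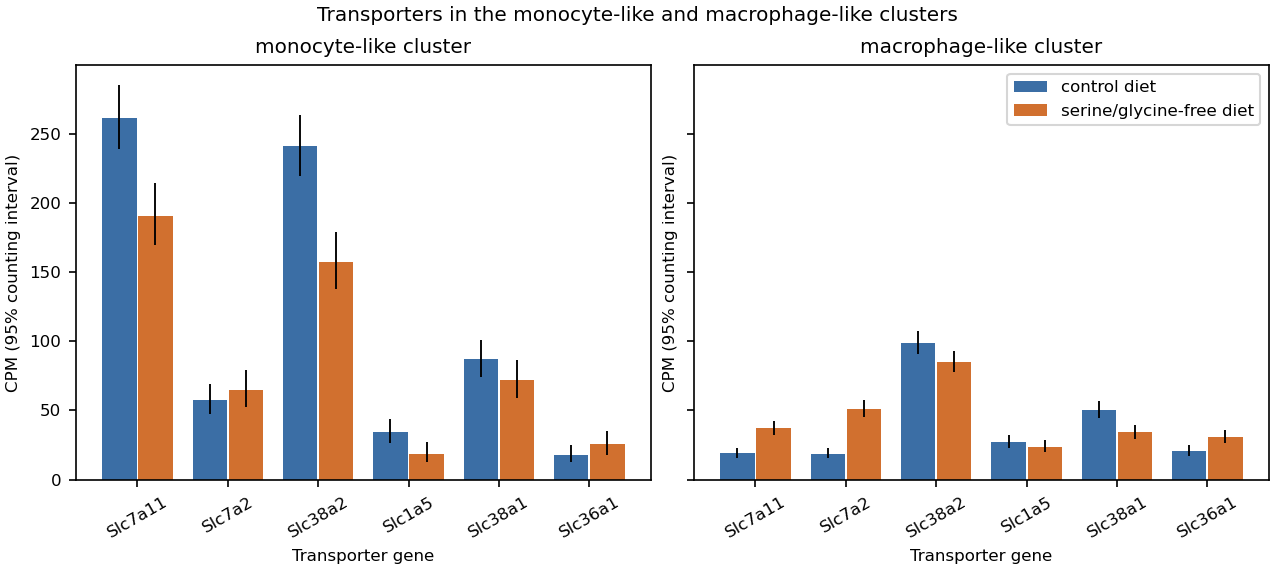
CPM of 6 transporters in the monocyte-like cluster (left) and the macrophage-like cluster (right), with bars for the control (blue) and serine/glycine-free (orange) libraries and lines for 95% counting intervals. Slc7a11 stands at 261 and 191 CPM on the left and at 18.9 and 37.2 CPM on the right.

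With all cells counted, neutrophil-like cells had the highest Slc7a11 level of any class in both libraries. It was 607 CPM in the control library and 250 CPM in the serine/glycine-free library, a log2 ratio of -1.28 (-1.61 to -0.94). This class was shallow (medians of 847 and 724.5 UMIs) and 16.3% of its measured genes were called higher and 12.9% lower. Of 9 measured members 3 were called higher (Slc1a2, Slc1a5 and Slc38a2, each at the level of tumour RNA with all cells counted) and Slc7a11 was the 1 called lower. Its neutrophil markers also differed, summing to 51543 and 9905 CPM. Without the 19 control and 74 serine/glycine-free cells that carried tumour genes, Slc7a11 stood at 962 and 1060 CPM, a log2 ratio of 0.14 (-0.24 to 0.53). Tumour RNA was then at 0.34% and 3.96%. Slc38a2 stood at 200 and 263 CPM (0.40, -0.44 to 1.26), above the level this RNA would bring but not called. Slc1a2 had 0 and 17 UMIs and Slc1a5 0 and 2, too few to be measured. Neutrophil markers then summed to 85269 and 45647 CPM. With at least 2000 UMIs per cell, which left 10 and 69 neutrophil-like cells, Slc7a11 stood at 82.9 and 86.6 CPM. The monocyte-like cluster had 265 and 167 CPM in that setting, so neutrophil-like cells were not highest there. A Slc7a11 UMI was found in 44.7% and 56.1% of neutrophil-like cells and, after thinning to 500 UMIs, in 34.1% and 35.7%, against unthinned shares of 0.83% and 0.49% in T-like cells, whose median depth was 2674 and 2030.5 UMIs.

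**Figure D5:**
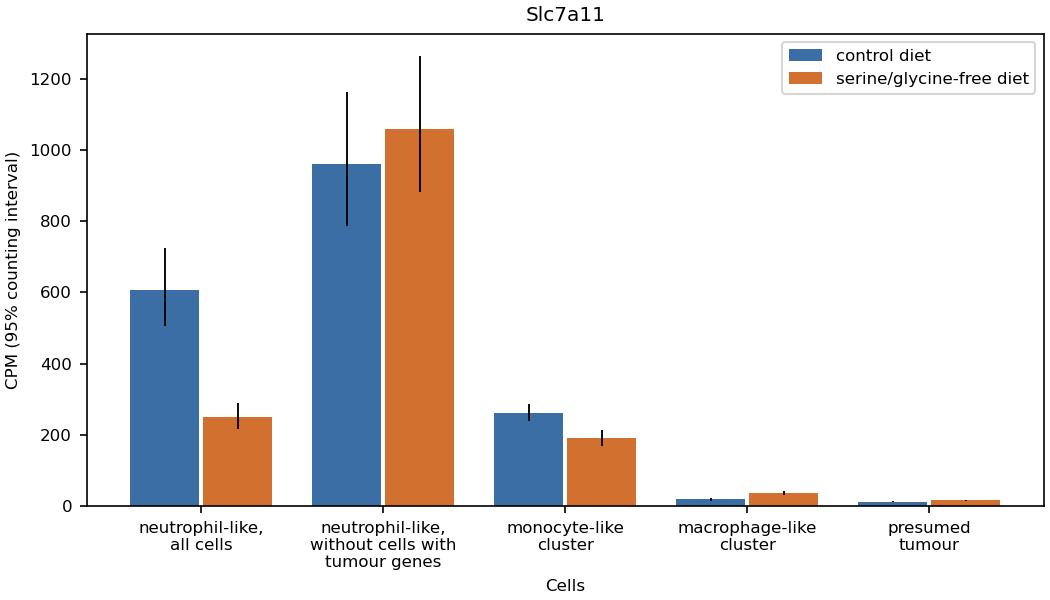
Slc7a11 level in CPM with 95% counting intervals in neutrophil-like cells (all, and without cells that carried tumour genes), the monocyte-like and macrophage-like clusters and presumed tumour cells, for the control (blue) and serine/glycine-free (orange) libraries. The neutrophil-like bars stand at 607 and 250 CPM with all cells and at 962 and 1060 CPM without those cells.

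T-like cells, of which 217 of 242 and 699 of 820 carried Cd8a or Cd8b1 and no Cd4, showed no called member in either direction among 14 measured (4.45% of all measured genes were called higher and 3.12% lower). A further cluster with T markers was left unnamed and is described below with the smaller classes. T-like cells had Slc38a1 at 143 and 154 CPM, a gene that was below 1 CPM in presumed tumour cells. Slc1a5 was at 60.8 and 62.2 CPM (0.03, -0.45 to 0.53) and Slc38a2 at 132 and 131 CPM (-0.01, -0.34 to 0.32). These intervals are wide, so differences of the size these carriers had in presumed tumour cells were not detectable at this depth. In NK-like cells 2 of 11 members were called lower (2.96%) and 0 higher (7.16%): Slc7a5 at 50.5 and 28.2 CPM (-0.84) and Slc1a5 at 77.6 and 50.0 CPM (-0.63), with tumour RNA at 2.67% and 10.5%. Without cells that carried tumour genes Slc7a5 lost its call (-0.71, -1.59 to 0.13) and Slc1a5 stood at -0.90.

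In fibroblast-like cells (113 and 158 cells) Slc43a3, which carries purine nucleobases, was called higher at 78.9 and 129 CPM (0.71, 0.32 to 1.11), among 2 of 19 members (7.57% of all measured genes); the other, Slc1a2, was at the level of tumour RNA. Slc1a5 was the 1 member called lower (4.85%), at 89.0 and 61.7 CPM (-0.53), and without cells that carried tumour genes it stood at 80.4 and 67.9 CPM (-0.24). Slc38a10 was at 107 and 124 CPM. In endothelial-like cells (46 and 76 cells) Slc7a7, a light chain for basic amino acids, was called lower at 112 and 53.6 CPM (-1.07; 7.63% of all measured genes) and Slc6a6 higher at 28.8 and 75.8 CPM (1.40; 9.02%), with tumour RNA at 8.85% and 26.0%. Neither call held without cells that carried tumour genes, where Slc7a7 stood at 110 and 70.7 CPM (-0.64, -1.50 to 0.19) and Slc6a6 had 0 and 11 UMIs, too few to be measured. In dendritic-like cells the 1 of 12 called higher (5.21%) was Slc1a2 at the level of tumour RNA, and 0 were lower (2.85%). In the unnamed leukocyte cluster led by Bcl11b and Lef1, Slc38a9, a lysosomal arginine sensor, was the 1 of 12 called higher (6.03%), at 26.4 and 57.6 CPM (1.12), and 0 were lower (4.97%). This cluster had 15 T panel genes raised, and 769 of its cells passed the T gate one by one. It was left unnamed because it was shallow (medians of 1598 and 1028 UMIs) with 0 panel genes among its 10 leading genes. In B/plasma-like cells 0 of 12 were called higher (3.56%) or lower (2.76%), with 21 cells in the control library.

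Other genes of amino-acid handling were counted the same way. Of the mitochondrial carriers 14 of 15 were measured in presumed tumour cells, of the lysosomal, peptide and aromatic carriers 7 of 9, of the other membrane and vesicular carriers 3 of 13 and of the amino-acid sensors 11 of 13, and 0 were called in either direction, beside 6.42% (higher) and 5.54% (lower) of all measured genes. In monocyte/macrophage-like cells 0 were called among 11, 7, 0 and 12 measured, beside 5.79% and 3.61%. In T-like cells 7, 4, 1 and 9 were measured, 0 were called lower (3.12% of all measured genes) and 1 was called higher (4.45%), the mitochondrial serine carrier Sfxn1 at 52.4 and 83.9 CPM (0.68, 0.19 to 1.19). The latter count is near the share over all genes.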

How the data were processed

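Raw UMI counts per gene and cell barcode were deposited by the authors for 2 libraries. They were made with Cell Ranger, version 7.0.1 per the file headers but 2.2.2 with mm10 per the submitters' processing notes. Members and lists were chosen with earlier results of these data known. Cells with at least 500 UMIs, 300 genes and at most 20% mitochondrial UMIs were kept, and Scrublet removed 571 and 1206 cells. Clustering (scanpy 1.11.5, 2000 variable genes without the transporters, 30 principal components, 15 neighbours, Leiden resolution 1) gave classes named from marker panels. A cluster of 61 and 145 cells with both tumour and leukocyte genes was left out, a choice made after the data were seen. UMIs were summed per class, with ratio intervals from the exact conditional (Clopper-Pearson) method and at least 20 UMIs for a measured gene. Ratio intervals were tested on simulated counts with counting error only, so that test does not cover differences between cells, mice or libraries. Named were Slc1a4, Slc1a5, Slc38a2, Slc1a2, Slc7a11 and members with at least 200 UMIs in a class. Totals were 173785388 and 173592046 UMIs.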

Additional observations from a re-analysis of the deposited data

Results flagged for a closer look

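Slc7a11 moved in opposite directions between kinds of cell. Its log2 ratio of serine/glycine-free over control was 0.35 in presumed tumour cells and -0.23 in monocyte/macrophage-like cells, with each counting interval on its own side of 0. Within the latter class it was 0.97 in the macrophage-like cluster and -0.45 in the monocyte-like cluster. The differences between these ratios were not tested, since each diet had 1 library.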

How the results depend on the processing

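No paired analysis was possible because each diet had 1 library. Across the alternatives, 77 of the summary values stayed near their main value and 17 did not. For counts, near meant within 1.5 times. For the median ratio in presumed tumour cells it meant a shift below the median distance from middle to end of a counting interval. No called ratio changed sign in presumed tumour, monocyte/macrophage-like or T-like cells. In neutrophil-like cells the Slc7a11 ratio of -1.28 lost its call under settings chosen after seeing the data. It was 0.14 (-0.24 to 0.53) without cells that carry tumour genes. With at least 2000 UMIs per cell it was 0.06 (-0.96 to 1.26), on 9 and 60 UMIs in 10 and 69 cells. Both intervals included 0. In presumed tumour cells the members called higher (4) numbered 2 with at least 100 UMIs, 1 with 1 or 10 CPM added, 7 with cells gated one by one and 1 with clusters weighted equally. Those called lower (3) numbered 1 with 1 CPM added, 0 with 10 CPM added and 1 with clusters weighted equally. In monocyte/macrophage-like cells those called lower (1) numbered 2 with the mean of each cell's CPM, 0 with 1 or 10 CPM added, 3 with at least 2000 UMIs per cell, 2 with cells gated one by one and 3 without cells that carry tumour genes. In T-like cells those called higher (0) numbered 1 with the mean of each cell's CPM and 2 with doublets kept, and those called lower (0) numbered 1 with cells gated one by one. The causes were not tested. Slc1a2 in presumed tumour cells kept a ratio of 1.04 to 1.32 and Slc7a11 of 0.20 to 0.47 over all settings. Median UMIs per cell differed between the libraries, and classes of under 200 cells had wide intervals.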

Other observations

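Slc17a6, which loads glutamate into vesicles in neurons and is no member of the families above, led the T-like cluster although it was left out of the genes used for clustering. T-like cells held 237 of its UMIs in the control library (282 CPM) and 560 under the other diet (270 CPM), whereas presumed tumour cells held 1 and 11.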
